A study of Homo sapiens with 6 samples.

Results

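The miR-379 to miR-656 cluster is a run of miRNA hairpins in the imprinted DLK1-DIO3 region of 14q32. Its members were taken by name: every deposited row with 1 of 39 stems from miR-379 to miR-656, both arms and all copies included. This gave 74 of the 2656 rows, and each of the 39 stems had at least 1 row. Small RNA was sequenced from K562, a human line from chronic myeloid leukaemia in blast crisis, as 3 libraries of azacitidine-sensitive cells and 3 of azacitidine-resistant cells. The resistant cells had been kept in rising doses of azacitidine, a cytidine analogue that traps DNA methyltransferases and lowers DNA methylation, and both forms were grown in the same serum-supplemented RPMI medium. The labels leave unsaid what NT in the library names means and if azacitidine was still in the medium when cells were taken. They call the libraries biological replicates without naming separate cultures or selections, so the p-values measure the spread between these libraries, which may be technical.

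In this region the DNA of the paternal copy is methylated at a control element and the non-coding RNAs are made from the maternal copy. The hairpins are cut from long transcripts, 2 arms of each hairpin (5p and 3p) can be loaded into Argonaute, and bases 2 to 8 of the loaded arm, the seed, pair with target mRNAs. The cluster is best known from brain, placenta and stem cells, and its miRNAs are abundant in acute promyelocytic leukaemia. In GRCh38 the 42 hairpins that make the matched members lie on the plus strand of chromosome 14 between 101022066 and 101066801, a span of 44.7 kb. By GENCODE 29, 13 of the hairpins lie within MEG8, 6 within MIR381HG and 6 within MEG9, and 17 lie in no annotated long non-coding RNA. Of the 25 inside such a gene, 24 were intronic and 1 overlapped an exon.

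Of the 74 member names, 73 were matched to a mature sequence of RefSeq (GRCh38.p14). miR-668-3p was not. The sequences below are those of the most abundant members and of members that share a seed, because equal seeds group arms from different hairpins and near-equal sequences make the assignment of reads uncertain. The seed is in capitals. The 2 abundant 5p arms of the start of the cluster differ in the first base of the seed:
miR-379-5p: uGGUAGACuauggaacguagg
miR-411-5p: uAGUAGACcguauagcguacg
miR-654-3p, miR-494-3p and miR-758-3p complete the most abundant members with miR-381-3p, shown after them:
miR-654-3p: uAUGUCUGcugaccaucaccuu
miR-494-3p: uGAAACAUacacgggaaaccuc
miR-758-3p: uUUGUGACcugguccacuaacc
The 3p arms of miR-379 and miR-411 share a seed, as do miR-381-3p and miR-300:
miR-379-3p: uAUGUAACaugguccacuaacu
miR-411-3p: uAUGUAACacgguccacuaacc
miR-381-3p: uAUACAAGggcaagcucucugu
miR-300: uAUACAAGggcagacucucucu
miR-154-3p and miR-487a-3p share a seed, and miR-539-3p and miR-485-3p share another that is the same motif moved by 1 base:
miR-154-3p: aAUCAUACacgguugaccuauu
miR-487a-3p: aAUCAUACagggacauccaguu
miR-539-3p: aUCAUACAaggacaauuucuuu
miR-485-3p: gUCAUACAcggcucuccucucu
The miR-376 group, a known site of A-to-I editing, and the miR-1185 copies are nearly identical over their whole length:
miR-376a-3p: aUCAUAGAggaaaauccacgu
miR-376b-3p: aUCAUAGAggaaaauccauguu
miR-376c-5p: gGUGGAUAuuccuucuauguu
miR-376b-5p: cGUGGAUAuuccuucuauguuu
miR-1185-1-3p: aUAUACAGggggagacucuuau
miR-1185-2-3p: aUAUACAGggggagacucucau
The last set holds arms that share seeds and were not called in either fit below:
miR-654-5p: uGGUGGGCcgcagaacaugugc
miR-541-3p: uGGUGGGCacagaaucuggacu
miR-487a-5p: gUGGUUAUcccugcuguguucg
miR-487b-5p: gUGGUUAUcccuguccuguucg
miR-494-5p: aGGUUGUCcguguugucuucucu
miR-410-5p: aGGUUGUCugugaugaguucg
miR-323b-5p: aGGUUGUCcguggugaguucgca

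Library totals ran from 3291500 counts in resistant replicate 3 to 12563945 in sensitive replicate 1, and the low-count filter left 768 miRNAs to test with all 6 libraries. Resistant replicate 3 stood apart: over the tested members its log2 CPM (the count scaled to a common library size, after TMM normalisation) correlated with those of resistant replicates 1 and 2 at r = 0.900 and 0.880, and these correlated with each other at 0.996 (Pearson, across members, which are not independent). Annotations that resemble fragments of other RNAs held 5.01% of its counts against 1.02% to 1.70% in the other libraries, and miR-92a-3p held 58.6% against 10.5% to 20.2%. Results are therefore given with and without this library. The labels name the cells myeloblasts, and the myeloid miR-223-3p, miR-142-3p and miR-142-5p were present in every library. Their summed level was 11649 to 13054 CPM in sensitive and 1350 to 10466 CPM in resistant libraries. The 4 erythroid markers summed to 5208 to 7106 CPM and 10393 to 63519 CPM. The higher sums were those of miR-486-5p, at 13140, 9582 and 63305 CPM in resistant replicates 1 to 3, while miR-451a, miR-144-3p and miR-144-5p had 47.5 to 387 CPM in resistant and 107 to 383 CPM in sensitive libraries. miR-150-5p of lymphocytes stayed at or below 0.712 CPM and miR-214-3p of fibroblasts had 0 counts. The rest of the stromal list was present. miR-145-5p stood at 82.5 to 99.9 CPM in sensitive and 22.8 to 29.1 CPM in resistant libraries. miR-143-3p stood at 10.2 to 24.4 CPM in sensitive libraries and at 101, 111 and 13.7 CPM in resistant replicates 1 to 3. miR-199a-5p was low, with counts in 5 libraries. The neuronal list was 2624 to 6895 CPM in sensitive and 223 to 1113 CPM in resistant libraries, nearly all of it miR-9-5p, with miR-124-3p at or near 0. The epithelial list was 115 to 140 CPM and 324 to 453 CPM, mostly miR-200c-3p. Neither sum overlapped between the groups. Within the epithelial list miR-200a-3p and miR-200b-3p went the other way. They had 11.1 to 14.1 and 19.8 to 27.6 CPM in sensitive and 1.57 to 6.26 and 12.8 to 15.6 CPM in resistant libraries. miR-141-3p overlapped, and miR-205-5p was at or near 0. The part of these differences in the results below was not tested.

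The cluster made up 17.3%, 15.9% and 21.5% of the counts in sensitive replicates 1 to 3, and 9.46%, 11.8% and 2.47% in resistant replicates 1 to 3. Every resistant library was below every sensitive one. Exact 95% binomial intervals of these shares were narrow, the widest running from 21.44% to 21.51% in sensitive replicate 3. They cover counting error only, since the reads carry no molecular identifiers. With miR-92a-3p left out of the totals the shares were 19.99%, 17.7% and 25.1% in sensitive and 11.9%, 14.3% and 5.97% in resistant replicates 1 to 3, again without overlap. With all counts, sensitive libraries averaged 18.2 ± 2.92% and resistant ones 7.92 ± 4.86% (SD, n = 3 each), or 10.6% over resistant replicates 1 and 2. In RNA from a whole culture, fewer cells that make these miRNAs and less of them per cell cannot be told apart.

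miR-381-3p was the most abundant member. It alone held 42.0%, 38.3% and 52.3% of the cluster's counts in sensitive replicates 1 to 3 and 31.9%, 38.6% and 15.8% in resistant replicates 1 to 3, so these ranges overlapped. Without miR-381-3p the rest of the cluster took 10.0 ± 0.225% of all counts in the sensitive group, a narrow spread, and 6.44%, 7.25% and 2.08% in the resistant one. The lower share was present in the sum of the other 73 rows as well, though not in each of them.

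The 18 rows of the same imprinted region that lie outside the cluster (miR-770, miR-493, miR-337, miR-665, miR-431, miR-433, miR-127, miR-432, miR-136 and miR-370) held a smaller share. They made up 4.37%, 4.13% and 4.90% of the counts in sensitive replicates 1 to 3 and 4.67%, 4.59% and 3.77% in resistant replicates 1 to 3, and the groups overlapped. This sum is mostly miR-127-3p and miR-493-5p, so it says little of the other rows, whose changes are given at the end. Relative to these 18 rows, the cluster had 4.06 ± 0.285 times their counts when sensitive and 1.75 ± 0.988 times when resistant (SD, n = 3 each). In every resistant library this ratio (2.02, 2.57 and 0.655) was below the lowest sensitive one (3.84). No p-value is given for these sums, since the members were chosen as a set. The ratio is of counts without a correction for GC content. With the correction given below, median log2 fold changes without resistant replicate 3 were close. They were -0.55 for the cluster and -0.49 for these 18 rows.

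**Figure D1:**
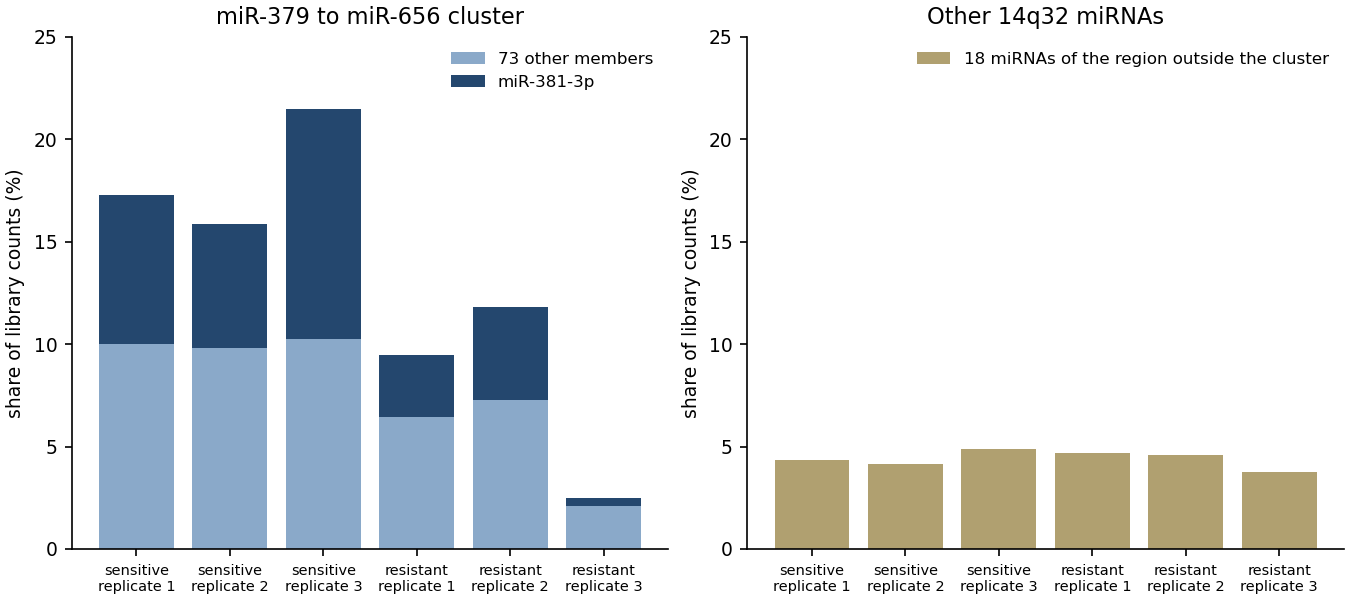
Share of library counts (%) in each of the 6 libraries, for the 74 rows of the miR-379 to miR-656 cluster (left, miR-381-3p dark) and the 18 other miRNAs of 14q32 (right). The cluster bars stand at 15.9% to 21.5% in sensitive and 2.47% to 11.8% in resistant libraries, and the bars on the right at 3.77% to 4.90% in all 6.

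Of the 74 members, 71 passed the filter on low counts with all 6 libraries. miR-300 and miR-412-3p had too few counts, and miR-668-5p had 0 counts in every library, which allows up to 0.226 CPM (3 counts) in resistant replicate 2 and up to 1.18 CPM in resistant replicate 3. Of the 71, 0 passed edgeR's test over all miRNAs (lowest adjusted p = 0.130), while 4.17% of all 768 tested miRNAs did. At an unadjusted p under 0.05 there were 15 members lower and 1 higher in resistant cells, against 10% and 16.7% of all tested miRNAs. DESeq2 called 10 members lower and 0 higher (6.64% and 12.8% of all tested), and limma-voom, with weights that counted resistant replicate 3 at 0.0621, called 42 lower and 3 higher (22.8% and 19.3%). With no filter, edgeR called 7 members lower and 0 higher (2.71% and 6.63% of 1734, or 9.34% in either direction). The log2 fold change was negative for 58 of the 71, against 53.8% of all tested, and the median was -0.99, against -0.11 over all tested. All 3 resistant libraries lay below all 3 sensitive ones for 45 of the 71 members (63.4%, against 22.9% of all tested), and above them for 2, the arms of miR-541 (18.9% of all tested).

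Without resistant replicate 3, 30 of 72 tested members fell and 0 rose (edgeR adjusted p under 0.05). That was 41.7% of the members, where 14.4% of all 822 tested miRNAs fell and 13.7% rose. The median log2 fold change was -0.66 over the members and 0.04 over all tested. The 30 came from 23 of the 39 stems, and the decreases ran from 1.56-fold for miR-487b-3p to 2.91-fold for miR-154-3p. All 30 had negative log2 fold changes and no overlap between groups with the 6 libraries too, which share all but 1 library with this fit. The count rested on both other resistant libraries: with resistant replicate 1 also left out it was 2 (miR-381-3p and miR-411-5p, with 3.33% of all tested lower), and with resistant replicate 2 also left out it was 12 (5.81%). With sensitive replicate 1, 2 or 3 also left out it was 28, 32 or 35 (12.9%, 13.2% and 18.5%). With 1 resistant library left, the calls over all miRNAs were fewer too. In these fits with 1 resistant library, that library is assumed to vary as the sensitive ones do. With library totals in place of TMM factors, 15 members fell and 2 rose, both arms of miR-541 (7.91% of all tested fell and 21.8% rose, 29.7% together). That scaling moved the median of all tested miRNAs to 0.33, and the members' median stood 0.69 below it, as with the scaling used here.

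The start of the cluster, the 13 hairpins inside MEG8, held 12 of the 30 falls among 21 tested members. miR-411-5p was second in abundance. It stood at 17292, 17432 and 19634 CPM in sensitive replicates 1 to 3 and at 6912, 7609 and 1518 CPM in resistant replicates 1 to 3. The sensitive libraries were close together, and resistant replicate 3 was far below its 2 partners. Without that library miR-411-5p fell 2.40-fold (edgeR adjusted p = 0.000367, log2 fold change -1.27, SE 0.18), the lowest p of all members. With all 6 libraries it did not pass (edgeR adjusted p = 0.134, log2 fold change -1.76, SE 0.60).

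miR-379-5p, the first arm of the map, stood at 13830, 11610 and 10188 CPM in sensitive and 6637, 6789 and 1968 CPM in resistant replicates 1 to 3. All resistant values were lower, and it fell 1.70-fold without resistant replicate 3 (edgeR adjusted p = 0.0108). Its partner miR-379-3p stood at 1986, 2622 and 1479 CPM against 734, 805 and 190 CPM and fell 2.54-fold (edgeR adjusted p = 0.00206). miR-411-3p, which has the seed of miR-379-3p, stood at 2750, 2981 and 2337 CPM against 1123, 1193 and 339 CPM. It fell 2.24-fold in the 5 libraries (edgeR adjusted p = 0.00148). Both arms of both hairpins were thus lower, the less abundant ones included.

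Further arms of the MEG8 segment followed the same order of libraries, with resistant replicate 3 lowest. miR-758-3p stood at 6195, 4897 and 6006 CPM in sensitive and 2405, 2725 and 980 CPM in resistant replicates 1 to 3, and fell 2.14-fold without resistant replicate 3 (edgeR adjusted p = 0.00199). miR-329-3p, made by 2 neighbouring hairpins, stood at 3496, 3478 and 2913 CPM against 1535, 1672 and 833 CPM. miR-494-3p stood at 8221, 6954 and 6401 CPM against 3627, 3751 and 1293 CPM. Both groups were tight apart from resistant replicate 3, and the falls in the 5 libraries were 1.98-fold and 1.88-fold (edgeR adjusted p = 0.00301 and 0.00416). miR-495-3p stood at 1883, 2249 and 1894 CPM against 899, 922 and 233 CPM and fell 2.12-fold (edgeR adjusted p = 0.00199). miR-543 was an exception to the low values of resistant replicate 3. It had 3236, 2939 and 5083 CPM in sensitive and 1796, 1901 and 2032 CPM in resistant libraries, with resistant replicate 3 the highest of its group. It fell 1.96-fold without that library (edgeR adjusted p = 0.0135).

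**Figure D2:**
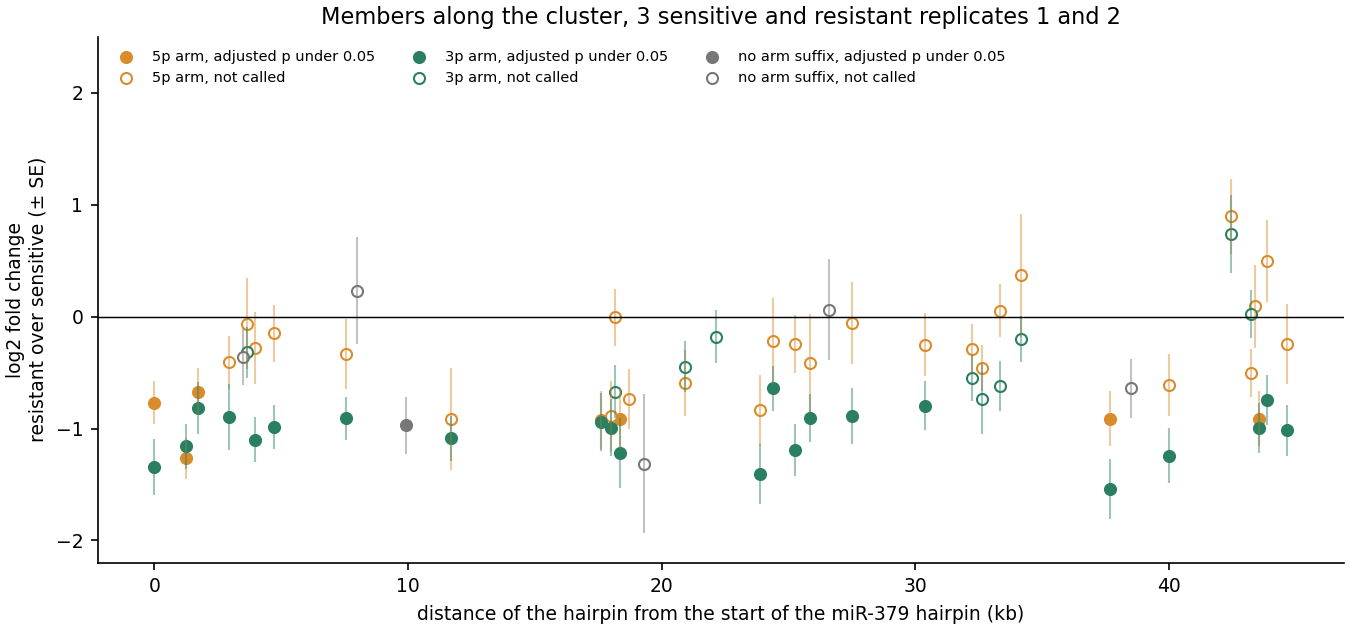
Log2 fold change, resistant over sensitive, without resistant replicate 3, of each mapped and tested member against the distance of its hairpin from the start of the miR-379 hairpin (kb). An arm made by several hairpins is drawn at the first, bars are SE, and filled points passed edgeR's test. Filled points lie between -1.54 and -0.64 and occur from the start of the map to its end, and no filled point lies above 0.

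The next segment, from miR-376c to miR-1185, lies in no annotated long non-coding RNA and held 5 falls among 13 tested members, all of the miR-376 group. miR-376a-3p stood at 1271, 1911 and 1063 CPM in sensitive and 654, 715 and 80.1 CPM in resistant replicates 1 to 3, and fell 1.99-fold without resistant replicate 3 (edgeR adjusted p = 0.0130). Resistant replicate 3 held 11.7% of the mean of its 2 partners for this arm. miR-376b-3p, of the same seed, fell 2.33-fold, miR-376b-5p 1.89-fold and miR-376c-5p 1.90-fold (edgeR adjusted p = 0.0125, 0.0227 and 0.0191). In contrast to these, the miR-1185 copies did not pass: miR-1185-1-3p had a log2 fold change of -0.45 and miR-1185-2-3p of -0.18 (SE 0.23 and 0.24). miR-654-3p, of the same segment and among the 6 most abundant members, stood at 11361, 9953 and 16940 CPM against 7259, 8203 and 3159 CPM. Its groups did not overlap, and it missed the threshold (edgeR adjusted p = 0.0541 without resistant replicate 3, log2 fold change -0.67, SE 0.24).

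The MIR381HG segment held 5 falls among 11 tested members. miR-381-3p stood at 75825, 63291 and 117667 CPM in sensitive and 25512, 36658 and 5059 CPM in resistant replicates 1 to 3. The sensitive libraries themselves spread widely, sensitive replicate 3 being the highest, and yet all resistant values were lower. Without resistant replicate 3 it fell 2.65-fold (edgeR adjusted p = 0.00238, log2 fold change -1.41, SE 0.27). miR-300, which has the same seed but lies in the segment before, had 17, 8 and 13 counts in sensitive and 3, 10 and 0 counts in resistant libraries and did not pass (log2 fold change -1.31, SE 0.62). miR-539-3p stood at 1274, 1668 and 1124 CPM against 511, 630 and 43.6 CPM and fell 2.28-fold in the 5 libraries (edgeR adjusted p = 0.00285). miR-485-3p has the same seed but lies in the next segment, at 33.4 kb. With 54.5% GC against 27.3%, it stood at 1170, 934 and 1366 CPM against 692, 756 and 1311 CPM. Its groups overlapped through resistant replicate 3, and it missed the threshold (edgeR adjusted p = 0.0572 without that library, log2 fold change -0.62, SE 0.22).

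In the segment from miR-487a to miR-377, 4 of 15 tested members fell (7 with the correction for GC content given below). miR-154-3p had the largest fall of all members: it stood at 587, 889 and 547 CPM in sensitive and 190, 255 and 36.5 CPM in resistant replicates 1 to 3. The groups were far apart, and the fall was 2.91-fold without resistant replicate 3 (edgeR adjusted p = 0.00158, log2 fold change -1.54, SE 0.27). miR-487a-3p, of the same seed, stood at 564, 618 and 502 CPM against 278, 344 and 65.2 CPM and fell 1.74-fold (edgeR adjusted p = 0.0173). miR-134-5p, which limits dendritic spine size through LIMK1 in neurons, stood at 2429, 2539 and 1880 CPM in sensitive and 1715, 1484 and 1768 CPM in resistant libraries. Its groups did not overlap, the difference was small, and it did not pass (edgeR adjusted p = 0.120 without resistant replicate 3, log2 fold change -0.46, SE 0.21).

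At the end of the map, 4 of 11 tested members of the MEG9 segment fell (2 with the correction for GC content given below). miR-656-3p, from the last hairpin at 44.7 kb from the start of miR-379, stood at 1751, 2029 and 1387 CPM in sensitive and 744, 892 and 95.8 CPM in resistant replicates 1 to 3. It fell 2.02-fold without resistant replicate 3 (edgeR adjusted p = 0.00586). miR-409-3p, from a hairpin at 43.2 kb, did not follow. It stood at 3651, 2648 and 3812 CPM in sensitive and 3595, 3017 and 3657 CPM in resistant libraries, and the groups overlapped fully. Its log2 fold change was 0.02 in both fits (SE 0.36 with 6 libraries and 0.21 with 5). miR-541, at 42.4 kb, was the single hairpin whose arms were both higher in every resistant library. miR-541-5p, singled out after its values were seen, stood at 3.91, 2.45 and 2.78 CPM against 5.09, 5.96 and 3.93 CPM and had a log2 fold change of 0.90 without resistant replicate 3 (SE 0.33, edgeR adjusted p = 0.0631). These are 15 to 79 counts per library except for the 10 of resistant replicate 3. Over all mapped members the log2 fold change without resistant replicate 3 had a Spearman's rho of 0.258 with map position (n = 71, from the same libraries and partly the same hairpins), a weak relation.

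**Figure D3:**
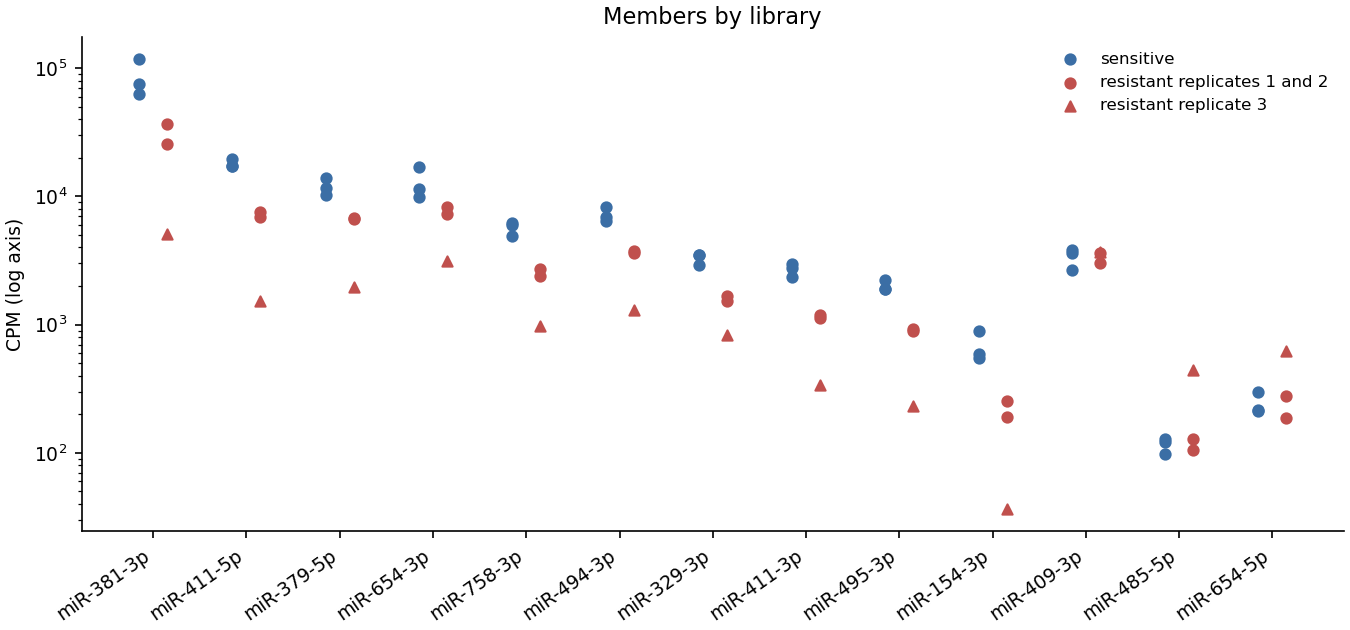
CPM (log axis) of 13 members in each library, with sensitive libraries in blue, resistant replicates 1 and 2 as red circles and resistant replicate 3 as a red triangle. From miR-381-3p to miR-154-3p all red points lie below the blue ones, for miR-409-3p they overlap at 2648 to 3812 CPM, and for miR-485-5p and miR-654-5p the triangle lies above all other points.

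With all 6 libraries, 13 of the 71 tested members had a positive log2 fold change, and 0 of these passed edgeR's test. miR-485-5p stood at 122, 98.8 and 128 CPM in sensitive and 128, 105 and 442 CPM in resistant replicates 1 to 3. miR-654-5p stood at 210, 217 and 300 CPM against 279, 188 and 625 CPM, and miR-323a-5p at 5.66, 7.15 and 14.2 CPM against 10.4, 5.96 and 48.7 CPM. In all 3 the high value was that of resistant replicate 3 alone. Their log2 fold changes of 0.95, 0.58 and 1.24 became 0.05, -0.01 and -0.06 without it. miR-487a-5p, miR-487b-5p and miR-494-5p went from 0.50, 0.46 and 0.01 to -0.25, -0.22 and -0.34. miR-410-5p, called higher in some of the alternative fits given at the end, went from 0.36 to 0.49.

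These high values moved with base composition. Over 68 tested members with a sequence and a count in resistant replicate 3, the ratio of that library to the mean of its 2 partners had a Spearman's rho of 0.801 with the GC content of the mature miRNA. It was below both partners for 51 of the 71 tested members and above both for 19. The change between groups moved with GC content as well, with a rho of 0.714 over 70 members with all libraries, where it was 0.565 over 677 tested miRNAs with a sequence. Without resistant replicate 3 it was 0.573 over 71 members and 0.330 over 729 tested miRNAs. All these values share libraries and base composition and carry no p. Of 43 members with at most 45.5% GC, the members' median, 26 fell without resistant replicate 3, and of 28 with more, 4 fell. The same classes of miRNAs outside the cluster had 15.4% and 7.65% lower.

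When GC content was corrected for without resistant replicate 3, 28 of 71 members fell and 0 rose, which was 39.4% of the members, where 13.6% of the 729 tested miRNAs fell and 13% rose. Of the 30 earlier calls, 25 were among them. Named here after their values were seen, miR-369-3p, miR-376b-5p, miR-380-3p, miR-410-3p and miR-655-3p were no longer called, and miR-134-5p, miR-134-3p and miR-485-3p were called in addition (edgeR adjusted p = 0.0125, 0.0202 and 0.0119). miR-411-5p (log2 fold change -1.24, edgeR adjusted p = 0.000272), miR-758-3p (-1.14, 0.000793) and miR-381-3p (-1.33, 0.0055) differed little from the uncorrected fit. Others shrank: miR-539-3p went from -1.19 to -0.69 and miR-656-3p from -1.02 to -0.56. The lost calls had -0.42 for miR-369-3p, -0.65 for miR-376b-5p, -0.50 for miR-380-3p, -0.53 for miR-410-3p and -0.38 for miR-655-3p. The members' rho with GC content was then 0.149. The order of the segments changed as well. In map order, 11 of 21, 4 of 13, 4 of 11, 7 of 15 and 2 of 11 tested members fell with the correction. Without it 12, 5, 5, 4 and 4 did. Differences between segments were not tested. With all 6 libraries the same correction gave 3 calls, all lower: miR-154-3p, miR-379-3p and miR-134-3p (4.73% of 677 tested were lower and 6.2% higher).

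**Figure D4:**
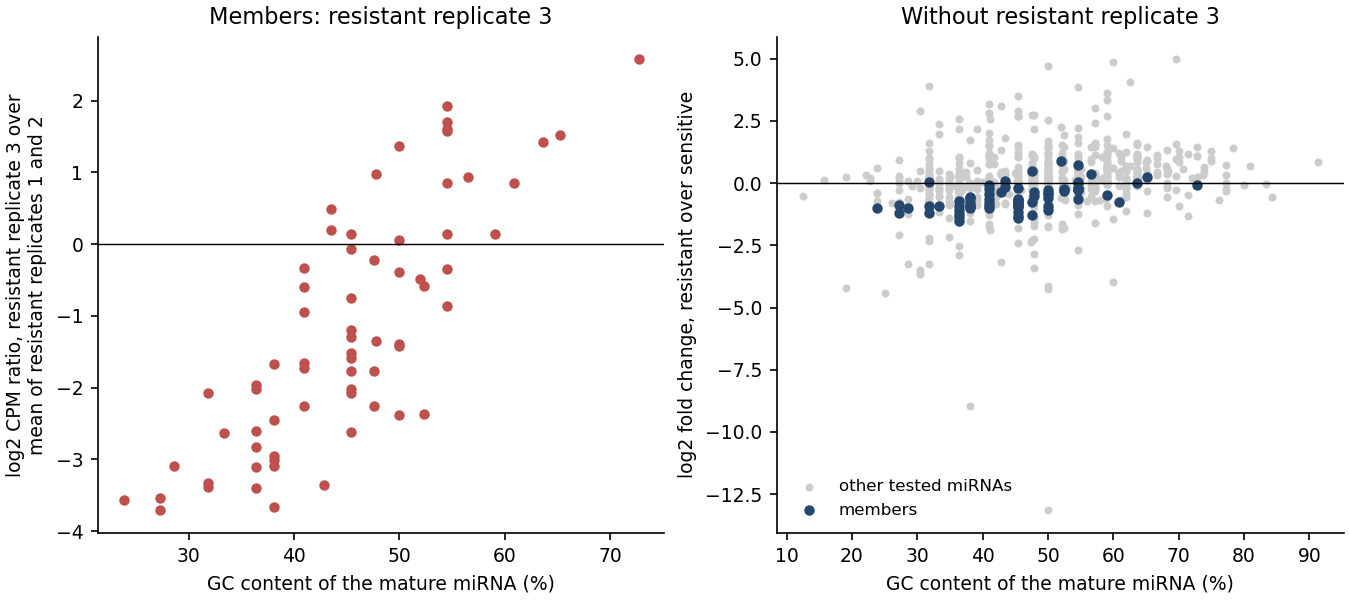
Left, log2 CPM ratio of resistant replicate 3 to the mean of resistant replicates 1 and 2 for 68 members against GC content of the mature miRNA (%). Right, log2 fold change without resistant replicate 3 against GC content for members (dark) and other tested miRNAs (grey). On the left, points of higher GC content lie higher, over the range of 23.8% to 72.7% GC, and on the right most dark points under 45.5% GC lie below 0.

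The 2 arms of a hairpin come from 1 precursor, so their ratio needs no scaling of the libraries. Exceptions are miR-329, where 2 hairpins make both arms, and miR-376a, where 2 hairpins make the 3p arm and 1 the 5p arm. The ratio of miR-376a thus mixes precursors. It was compared for the 30 member hairpins with enough counts in both arms, among 206 hairpins in all. The 3p arm was the more abundant in every library for 21 of the 30, and the 5p arm for 3, miR-134, miR-411 and miR-379. The bias was largest for miR-381, where the 3p arm was 6195 times the 5p arm in sensitive cells (log2 ratio of 5p to 3p -12.60 ± 0.278, SD, n = 3), and for miR-758 at 1256 times and miR-495 at 812 times. At the other end, the 5p arm of miR-134 was 313 times its 3p arm.

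For 4 of the 30 hairpins the mean log2 ratio with all 6 libraries had another sign in the resistant group. These were miR-376b, miR-377, miR-380 and miR-541, named after their values were seen, and the difference did not pass for any of them. Over resistant replicates 1 and 2 the means of miR-380 and miR-541 were -0.186 and 0.646. They had the sign of the sensitive means, -0.626 and 0.428. The sensitive means of miR-376b and miR-377 were near 0, at -0.0198 and -0.00455 (SD 0.401 and 0.584). Without resistant replicate 3 the estimated difference was toward the 5p arm in 27 of the 30 hairpins, where 56.3% of all 206 did so, and the median difference was 0.56 on the log2 scale against 0.08 over all. With 6 libraries it was 26 of 30 (55.3% of all), with a median of 1.03 against 0.16. None of the 30 passed limma's test in either fit: 0 were called with 6 libraries (1.46% of all 206 were) and 0 without resistant replicate 3 (1.94%). At an unadjusted p under 0.05 there were 3 and 4, against 7.28% and 10.2% of all 206. The smallest p-values were those of miR-410, named after its values were seen, whose log2 ratio averaged -6.35 ± 0.734 in the sensitive group and -4.52 ± 0.876 in the resistant one (SD, n = 3 each; limma adjusted p = 0.410). For miR-381 the ratio went to -11.72 ± 0.678 (difference 0.87, SE 0.47, limma adjusted p = 0.410). For miR-411 it was 2.76 ± 0.276 and 2.48 ± 0.282, and for miR-134 it was 8.29 ± 0.504 and 8.34 ± 0.449. The groups overlapped for both.

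The ratio did not overlap between groups for 11 of the 30 hairpins, with resistant libraries above for 10, where 15.5% of all 206 were above. In the calls per arm without resistant replicate 3, 22 of 33 tested 3p arms of the cluster fell, 7 of 33 5p arms, and miR-543, which has no arm suffix. Over all tested miRNAs 19.2% of 3p arms and 11.8% of 5p arms fell. The cluster's 3p arms were also the more abundant, with a median of 984 CPM against 52.7 CPM, and all 30 calls were at a mean of at least 10 CPM, where 22 of 31 and 7 of 24 fell. The median log2 fold changes were -0.90 and -0.41, and the difference between 3p and 5p arms was not tested. The 3p arms had a median GC content of 40.9% and the 5p arms of 47.8%, and the 5p arm had more GC in 22 of the 30 hairpins. Over the hairpins, the shift and the GC difference of the arms had a Spearman's rho of 0.604 with 6 libraries and 0.401 without resistant replicate 3 (n = 30), and 0.562 and 0.422 over the 174 hairpins with both sequences. The part of base composition in the arm shift was not tested further.

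**Figure D5:**
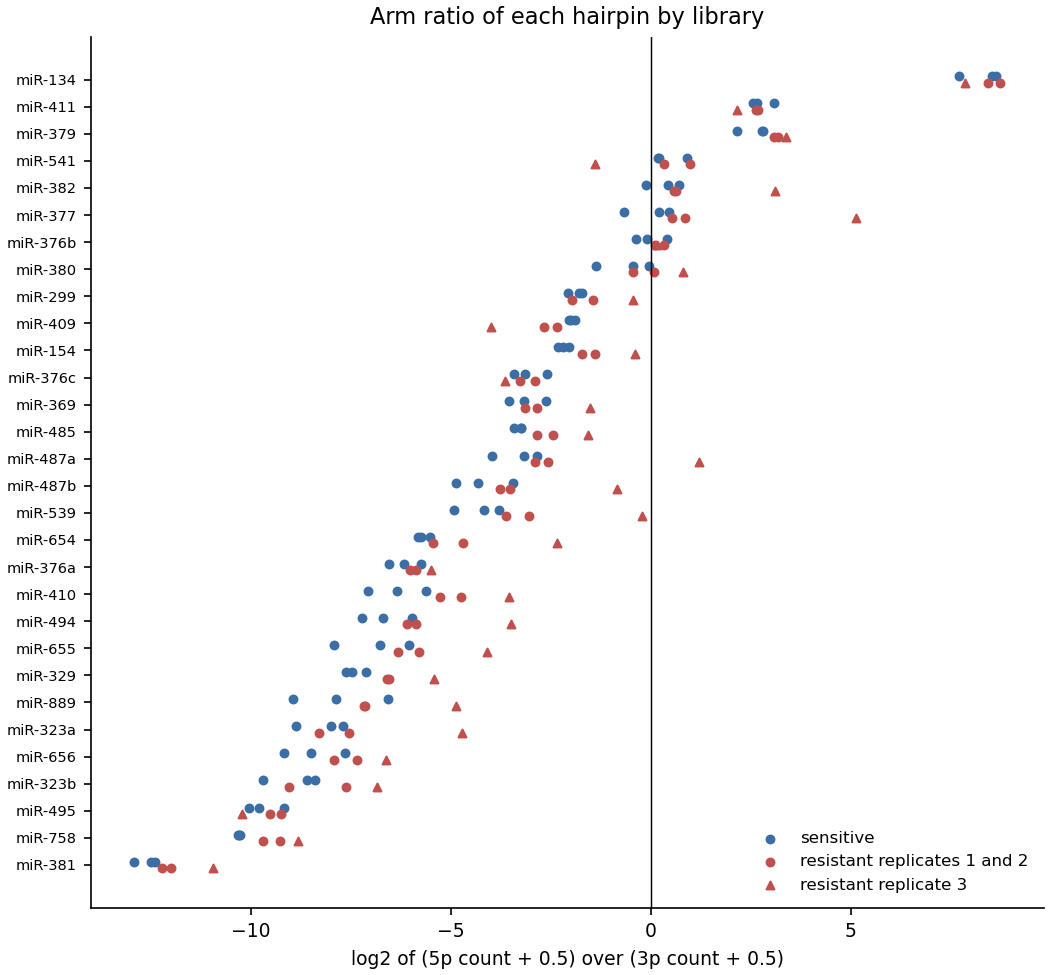
Log2 ratio of the 5p to the 3p count (0.5 added to each) of 30 member hairpins, 1 point per library, ordered by the sensitive mean. Points right of 0 have more 5p, as for miR-134, miR-411 and miR-379 in all 6 libraries, and the red points lie to the right of the blue ones without overlap for 10 hairpins.

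Outside the cluster but in the same imprinted region, 18 of 18 rows were tested, with 0 called with 6 libraries (4.17% of all tested were) and 4 lower and 0 higher without resistant replicate 3 (14.4% and 13.7% of all tested). Named after their values were seen, these were both arms of miR-136, miR-337-3p and miR-665. The median log2 fold change of the 18 was -0.30 in that fit, against -0.66 for the cluster. With GC correction it was -0.49, with 16 of 18 below 0, against -0.55 for the cluster, so the medians were close there. In that fit 4 fell and 0 rose, both arms of miR-136, miR-665 and miR-370-3p (13.6% and 13% of all tested). miR-127-3p, the most abundant of them and antisense to RTL1, stood at 20370, 18276 and 19662 CPM in sensitive and 20491, 17567 and 28966 CPM in resistant replicates 1 to 3, with overlapping groups. miR-493-5p, the next, stood at 9409, 8867 and 11164 CPM against 7039, 7244 and 5214 CPM. Its groups did not overlap and it did not pass (edgeR adjusted p = 0.128 without resistant replicate 3, log2 fold change -0.41, SE 0.19). miR-136-3p stood at 1777, 2674 and 1934 CPM against 784, 915 and 104 CPM and fell 2.41-fold in that fit (edgeR adjusted p = 0.00199). The difference between the cluster and these rows was not tested.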

How the data were processed

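The authors deposited raw read counts per mature miRNA, 1 column per library, per the file header. Per the submitters' processing notes the genome build is GRCh38. The sources used here do not give aligner, counter or miRBase release. How reads of near-identical members (miR-376, miR-1185 and miR-487 copies) were assigned to rows is thus not known. The 2 miR-329 hairpins share 1 row per arm. Per the labels' protocols, DNase-treated RNA went into NEBNext small RNA libraries sequenced on a NovaSeq instrument.

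Counts were analysed with edgeR 4.0.16 (R 4.3.3): filterByExpr (minimum count 10, total 15), TMM factors, quasi-likelihood F test of resistant against sensitive without covariates, Benjamini-Hochberg adjustment over all tested miRNAs, threshold 0.05. SE is the absolute log2 fold change over the square root of F. CPM uses TMM-scaled library sizes. Arm ratios (0.5 added, mean count of at least 10 in both arms) were tested with limma 3.58.1 over all hairpins. DESeq2 1.42.0 was an alternative. The GC correction is a loess curve (span 0.75) per library on the GC content of RefSeq mature sequences, known for 88.2% of tested miRNAs. The scripts were tested on simulated data.

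The members, lists and tests were chosen with earlier results of these data known. Named were the 6 most abundant members, the 8 with the lowest p in each fit, the highest and lowest log2 fold changes and all positive ones at a mean of at least 10 CPM, hairpins with extreme arm ratios, members that share a seed, and the map ends. Other marker lists, each summed within a library, were liver (2.41 to 6.33 CPM in the libraries) and muscle (0 to 3.57 CPM). Stromal miRNAs summed to 96.0 to 119 CPM in sensitive and 36.5 to 143 CPM in resistant libraries.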

Additional observations from a re-analysis of the deposited data

How the results depend on the processing

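With 6 libraries edgeR called 0 members lower and 0 higher. Among the alternatives planned with all libraries, 10 were lower with DESeq2, 3 with GC correction and 7 with no filter. With voom quality weights 42 were lower and 3 higher, the latter miR-410-5p and both arms of miR-541. RLE factors, TMM factors computed without the cluster, library totals and a minimum mean of 10 CPM each gave 0 lower and 0 higher. Leaving out 1 library gave 0 to 30 lower, the 30 without resistant replicate 3 and 0 without any other. The same settings gave 0 to 4 other 14q32 miRNAs lower. Without resistant replicate 3 the lower calls were 31 with DESeq2 (14.7% of all tested lower), 31 with RLE factors (14.7%), 36 with TMM factors computed without the cluster (16.3%), 28 with GC correction (13.6%) and 15, and 2 higher, with library totals (7.91% and 21.8%). They were 2, 12, 28, 32 and 35 (and 2 higher) with resistant replicate 1, resistant replicate 2 and sensitive replicates 1, 2 and 3 also left out (3.33%, 5.81%, 12.9%, 13.2% and 18.5% of all tested lower, and 21.2% higher in the last). The fits that combine another scaling, DESeq2 or a further omitted library with the omission of resistant replicate 3 were chosen after seeing the data. The share of the cluster in all counts was 10.3 percentage points lower in resistant cells (a difference of -10.3), and -4.76 without miR-381-3p.

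It could not be told if the replicate numbers pair the libraries. The correlations of same-numbered deviations from the group means were -0.062, 0.256 and 0.13. Those of libraries with different numbers ran from -0.238 to 0.2. With 3 libraries per group these values cannot decide it. With a replicate block, 0 members were called with 6 libraries, and 37 lower and 1 higher without resistant replicate 3 (19.1% and 21.7% of all tested). The 1 higher was miR-410-5p (log2 fold change 1.00, edgeR adjusted p = 0.0024). In the latter fit sensitive replicate 3 has no partner in its block and adds nothing to the group difference. That fit thus nearly repeats the one with sensitive replicate 3 also left out. The log2 fold change of miR-381-3p was -1.120 in the block fit and -1.117 in the other. Of the 37 named members, 0 passed with 6 libraries. Under 622 alternatives in all, 99 values passed the threshold with the same direction, 496 neither passed nor turned, and 27, from 9 members, turned. Under GC correction with 6 libraries the log2 fold changes that turned were -0.62 for miR-323a-5p, -0.38 for miR-409-3p, -0.0933 for miR-487a-5p, -0.11 for miR-487b-5p and -0.56 for miR-654-5p. With GC correction and resistant replicate 3 left out they were, in the same order, -0.63, -0.17, -0.43, -0.40 and -0.47, and -0.15 for miR-485-5p and -0.31 for miR-494-5p. With no filter miR-409-3p had -0.0146 and miR-494-5p -0.0413. With voom quality weights miR-409-3p had -0.0266, miR-487a-5p -0.27 and miR-494-5p -0.29. With the replicate block and resistant replicate 3 left out, miR-487a-5p had -0.0476, miR-494-5p -0.0158 and miR-656-5p 0.0298. Leaving out each library in turn gave -0.0647 to 2.01 for miR-323a-5p, -0.62 to 0.050 for miR-485-3p, -0.25 to 1.07 for miR-487a-5p, -0.22 to 1.11 for miR-487b-5p, -0.34 to 0.46 for miR-494-5p and -0.00688 to 1.17 for miR-654-5p. The lowest value was always the one without resistant replicate 3. For these turns the cause was not tested. Members below 10 CPM, 16 of 74, rest on few counts in the shallow libraries, and small differences among them were not detectable at this depth.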
